A study of Mus musculus with 4 samples.

Results

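The proteasome subunit genes described here are the 40 of 33696 genes in the deposited matrices whose symbols begin with Psma, Psmb, Psmc, Psmd or Psme followed by a number, with the immunoproteasome genes Psmb8, Psmb9 and Psmb10 left out. The choice rests on symbols alone and used no measured value. Their transcripts were counted as unique molecular identifiers (UMIs, one per captured RNA molecule) over 31209 cell barcodes that held at least 500 genes and 1000 UMIs and at most 10% mitochondrial UMIs. The 40 genes gave 1690351 of 439004038 UMIs, or 3850 CPM (counts per 1000000 UMIs). In all, 39 of the 40 had at least 100 UMIs. The exception was Psmb11.

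The 26S proteasome degrades proteins tagged with ubiquitin. Its 20S core is a stack of rings: outer rings of alpha subunits (Psma genes) gate the entry and inner rings of beta subunits (Psmb genes) hold the catalytic sites. The 19S cap recognises, deubiquitinates and unfolds substrates with a ring of ATPases (Psmc genes) and a set of non-ATPase subunits (most Psmd genes), while Psmd5, Psmd9 and Psmd10 encode chaperones of cap assembly. Psme1 and Psme2 encode the PA28 alpha and beta activators induced by interferon gamma, Psme3 the nuclear PA28 gamma and Psme4 the activator PA200. Proteasome loss activates the transcription factor Nfe2l1, which raises subunit genes through antioxidant response elements.

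The 4 libraries hold bone marrow cells of transplanted mice and represent 1 treatment each. Recipients had been lethally irradiated and given CD45.1+ Tet2+/+ cells and CD45.2+ Tet2+/- cells in equal parts, and only live CD45.2+ cells, the Tet2+/- side, were sequenced, so each group carries the Tet2+/- genotype and no Tet2+/+ cells were analysed here. Treatment lasted 7 months and began after 1 month of engraftment. The Control mice received PBS injections and drinking water with 100 mM NaCl. The B12 mice received 0.29 μg of vitamin B12 per injection, given 2 times weekly, and the NaCl water. The Butyrate mice received PBS injections and water with 100 mM sodium butyrate, and the B12+Butyrate mice received both agents. Marrow of 3 mice was pooled per treatment, and Kit+ and Kit- cells were mixed in equal parts after sorting, so cell shares are set by the sort, the mice cannot be told apart and no treatment difference has a replicate check. The kept cells numbered 8752, 6793, 8048 and 7616 in Control, Butyrate, B12 and B12+Butyrate, with medians of 11583.5 to 12544.5 UMIs per cell, and 93 barcodes were shared by a pair of libraries. The labels used here give no age or sex.

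Cells were assigned to 15 classes by summed marker UMIs per 10000 UMIs, and 24152 cells (77.4%) fell into a class. A class name stands for its gate. The neutrophil stages run from primary granule progenitors (Mpo, Elane, Prtn3, Ctsg, Ms4a3) through cycling precursors with secondary granule markers (Ltf, Camp, Ngp, Lcn2, Chil3, Cd177) to non-cycling immature, intermediate and mature neutrophils, which were separated by maturation markers such as Retnlg, Mmp8 and Cxcr2. Because the gates used these genes, their levels are not a result.

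The promoter windows of 4 of the subunit genes named below are printed. Psmb5 and Psmb6 encode catalytic beta subunits that fell in maturing neutrophils, Psmd9 a chaperone that fell steeply, and Psme4 the activator that rose. Each line gives the 250 bases before the start of transcription, 5′ to 3′ on the gene's strand, from RefSeq on GRCm38.p6, and capitals mark TGACNNNGC, the antioxidant response element core, on either strand.
Psmb5, minus strand, chr14:54617996-54618245: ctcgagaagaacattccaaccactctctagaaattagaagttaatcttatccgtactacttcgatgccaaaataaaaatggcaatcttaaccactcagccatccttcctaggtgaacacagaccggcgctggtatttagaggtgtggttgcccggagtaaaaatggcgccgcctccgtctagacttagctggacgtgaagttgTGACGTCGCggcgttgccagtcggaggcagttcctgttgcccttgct
Psmb6, plus strand, chr11:70525107-70525356: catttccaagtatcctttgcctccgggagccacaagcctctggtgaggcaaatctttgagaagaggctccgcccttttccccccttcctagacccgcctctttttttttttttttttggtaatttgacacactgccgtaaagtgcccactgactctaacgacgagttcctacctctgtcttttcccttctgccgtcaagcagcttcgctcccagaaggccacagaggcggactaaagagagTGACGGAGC
Psmd9, plus strand, chr5:123227940-123228189: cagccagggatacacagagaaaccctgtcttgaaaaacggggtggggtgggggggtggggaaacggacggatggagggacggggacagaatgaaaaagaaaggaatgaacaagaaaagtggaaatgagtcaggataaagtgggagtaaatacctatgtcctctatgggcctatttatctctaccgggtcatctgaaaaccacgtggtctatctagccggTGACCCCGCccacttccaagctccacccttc
Psme4, plus strand, chr11:30771525-30771774: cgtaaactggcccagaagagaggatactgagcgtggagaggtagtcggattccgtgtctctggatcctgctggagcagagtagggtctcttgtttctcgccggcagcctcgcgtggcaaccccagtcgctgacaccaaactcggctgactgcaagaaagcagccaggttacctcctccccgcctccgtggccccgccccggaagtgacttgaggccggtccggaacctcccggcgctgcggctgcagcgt
The matches lie 47, 9 and 31 bases before the start in Psmb5, Psmb6 and Psmd9, and the Psme4 window has none. Of the 40 genes, 33 matched 36 windows. Psma8, Psmb1, Psmb2, Psmb7, Psmc3, Psmd3 and Psmd7 did not match. The element's letters were in 5 of the 36 windows (13.9%), those of Psmb5, Psmb6, Psmc6, Psmd12 and Psmd9, against 10.2% of all 32851 windows. The windows of Psma5 and Psmd5, which also fell in maturing neutrophils, lack the element. The 4 printed windows therefore do not show how the element relates to the changes, which was not tested. A CCAAT box (CCAAT, both strands) was in 36.1% against 33.8%, the interferon-stimulated response element core (GAAANNGAA, both strands) in 8.33% against 7.13%, and the gamma-activated site (TTCNNNGAA, which reads the same on both strands) in 0 of 36 against 7.02%. In Psmd9 the interferon core lies apart from the antioxidant element. A match describes letters in the window and not a bound site.

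Summed proteasome transcripts spanned a wide range across the marrow classes. Values are the mean ± SD of the 4 libraries, which differ in treatment, so the SD includes treatment differences as well. The sum was 6050.3 ± 362 CPM in cycling monocytes, the highest class mean of the 15, and 5372 ± 234 CPM in primary granule progenitors. Unlike non-cycling monocytes, cycling monocytes were gated without a limit on primary granule markers. These markers summed to 2338 to 3971 CPM in cycling and 157 to 356 CPM in non-cycling monocytes. Cycling B-lineage cells (78 cells in all) had 5228 ± 469 CPM, with fewer than 20 cells in 2 of the 4 libraries, and non-cycling monocytes 5099 ± 151 CPM. Plasmacytoid dendritic cells (DC), stem and multipotent progenitors, conventional DC and basophils and mast cells lay between 4219.9 and 4630.4 CPM on average. T and NK cells held 3574 ± 101 CPM, cycling neutrophil precursors 3039.8 ± 74.2 CPM and non-cycling B-lineage cells 2897 ± 92.1 CPM. Plasma cells, the secretory end of the B lineage, had 2629 ± 577 CPM in only 39 cells, with fewer than 20 in 3 of the 4 libraries. Immature, intermediate and mature neutrophils were at the low end, with 2296 ± 35.3, 1975 ± 38.4 and 1447 ± 74.7 CPM.

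Cycling monocytes (lowest library 5635 CPM) did not overlap with primary granule progenitors (highest library 5547 CPM). From primary granule progenitors down to basophils and mast cells each class overlapped with the next in that order. The lowest basophil and mast library (3961 CPM) lay above the highest T and NK library (3654 CPM). The 3 non-cycling neutrophil stages did not overlap with each other. Classes of 1 library share its depth, and the median UMIs per cell ranged from 4942 in non-cycling B-lineage cells and 5067 in mature neutrophils to 28507 in primary granule progenitors.

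**Figure D1:**
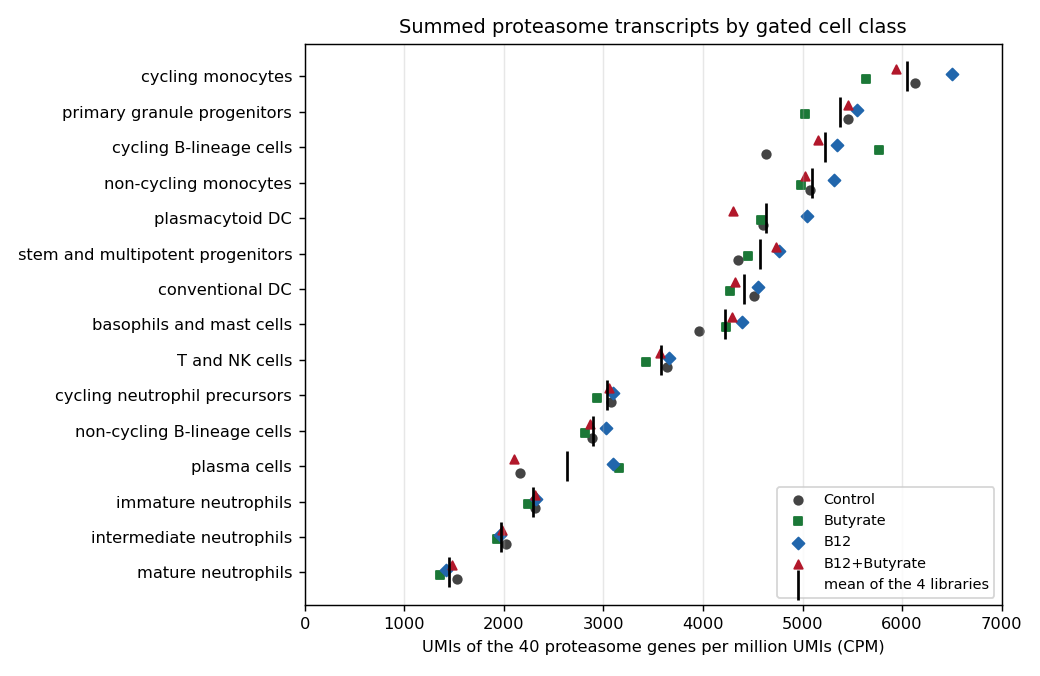
Summed UMIs of the 40 proteasome genes (x axis, CPM) in each gated class (y axis), with 1 point per library and a bar at the mean of the 4. Cycling monocytes lie between 5635 and 6497 CPM and mature neutrophils between 1356 and 1527 CPM.

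Along the neutrophil stages the sum went down at every step in each library. Control held 5461, 3073, 2309, 2025 and 1527 CPM from primary granule progenitors to mature neutrophils. Butyrate held 5027, 2931, 2244, 1933 and 1356 CPM. B12 held 5547, 3096, 2319, 1964 and 1421 CPM, and B12+Butyrate 5455, 3059, 2312, 1978 and 1483 CPM. Granule proteins fill much of a maturing neutrophil's RNA (42.1% of UMIs in immature neutrophils over the granule, maturation, S100a8 and S100a9 genes). With those UMIs left out of the totals, the means were still ordered, at 5781 ± 236, 4630.1 ± 94.4, 3968 ± 96.5, 3230.3 ± 91.7 and 2077 ± 138 CPM. The same cells held 158 ± 13.7, 64.5 ± 3.63, 29.3 ± 1.42, 19.5 ± 0.95 and 7.88 ± 0.623 proteasome UMIs each, and fewer captured molecules and less RNA per cell cannot be told apart.

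At the last step, from immature to mature neutrophils, nearly all members fell. Of the 38 members tested, 35 fell and 1 rose by edgeR's quasi-likelihood test with the library as a block and a Benjamini-Hochberg adjusted p under 0.05 over all 9467 genes tested, against 40.4% of all genes that fell and 37.3% that rose. The median member changed by -0.66 (log2, TMM-scaled), where the median gene changed by -0.07. By part of the complex, 7 of 7 alpha ring, 7 of 7 beta ring, 6 of 6 ATPase, 10 of 11 non-ATPase cap and 3 of 3 chaperone genes tested fell. The activators split, with 1 higher and 2 lower of 4. Markers of other cells were present in both stages. All 9 monocyte markers were detected, at 13.8 to 60 CPM in immature and 37.2 to 69.7 CPM in mature neutrophils. Plasma cell markers summed to 83.5 to 87.3 and 18.8 to 25 CPM (6 and 5 of 7 detected), and NK markers to at most 19.9 and 5.77 CPM (6 and 2 of 6). Conventional DC markers lay at 48.3 to 118 and 9.97 to 47 CPM (7 and 8 of 8), and primary granule markers at 144 to 219 and 28.1 to 228 CPM (5 of 5 in both). Median depth (12647 and 5067 UMIs) and mitochondrial UMIs (0.619 to 0.79% and 0.275 to 0.421%) moved with the stage, and the part of these and of the markers in the changes was not tested.

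The beta subunits with catalytic sites all fell. Psmb6, the caspase-like site, was at 57.7, 63.2, 61.9 and 62.2 CPM in immature neutrophils of Control, Butyrate, B12 and B12+Butyrate, and at 28, 28.1, 23.9 and 27.9 CPM in mature ones. The stages did not overlap, and the fitted change was -1.05 ± 0.08 (log2, SE, adjusted p = 1.9e-09). Psmb7, the trypsin-like site, went from 45, 53.2, 47.8 and 47.8 CPM to 26.3, 26.3, 23.1 and 27.1 CPM, a change of -0.76 ± 0.09 (adjusted p = 2.8e-07). Psmb5, the chymotrypsin-like site, went from 64.9, 62.9, 66.8 and 65.7 CPM to 41, 34.1, 43.2 and 41.7 CPM, a change of -0.55 ± 0.08 (adjusted p = 3.0e-06). Each of the 4 libraries was lower in mature neutrophils for all 3 genes.

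The steepest changes were in a cap subunit, a chaperone and an outer ring subunit. Psmd7, the inactive partner of the deubiquitinase Psmd14 in the cap lid, was at 23.6, 23.4, 27.1 and 25.9 CPM in immature and 7.7, 9.93, 6.22 and 5.9 CPM in mature neutrophils. The mature libraries were all under the immature ones, with a change of -1.68 ± 0.15 (adjusted p = 8.9e-09). Psmd9 went from 16.9, 16.7, 16.7 and 14.4 CPM to 4.7, 3.88, 4.42 and 5.9 CPM (-1.58 ± 0.17, adjusted p = 1.2e-07). Psma5 went from 45.2, 46.7, 48.1 and 48.1 CPM to 18.4, 13.4, 17.3 and 19.3 CPM (-1.29 ± 0.10, adjusted p = 1.3e-09). The other chaperones changed by -0.90 ± 0.13 (Psmd5, adjusted p = 6.3e-06) and -0.57 ± 0.11 (Psmd10, adjusted p = 0.00018). Psmd14 changed by -0.67 ± 0.07 (adjusted p = 1.7e-07). The ubiquitin receptor Psmd4 changed by -0.09 ± 0.07 (adjusted p = 0.28), at 53.1 to 56.7 CPM in immature and 42.7 to 48.8 CPM in mature neutrophils.

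Psme4 was the 1 member that rose. Its activator caps the core in place of the 19S cap. Psme4 was at 65.1, 67.7, 60.5 and 60.9 CPM in immature, 82.6, 70.8, 64.5 and 66.3 CPM in intermediate and 114, 103, 94.7 and 104 CPM in mature neutrophils of Control, Butyrate, B12 and B12+Butyrate. Every mature library lay above every immature one, and the change was 0.86 ± 0.06 (adjusted p = 6.2e-10). Its rise had begun a step earlier, with 0.53 ± 0.04 from cycling precursors (48.8 to 57 CPM) to immature neutrophils (adjusted p = 4.8e-08). The PA28 genes moved otherwise: Psme1 changed by -0.29 ± 0.07 (adjusted p = 0.00059) and Psme2 by -0.44 ± 0.07 (adjusted p = 1.8e-05) from immature to mature neutrophils. Psme3 was at 18.2 to 20.8 CPM and then 12.5 to 16.9 CPM, a change of -0.25 ± 0.12 (adjusted p = 0.064). The matrices also list Psme2b, a close copy of Psme2, and the labels do not state how reads were split between them.

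**Figure D2:**
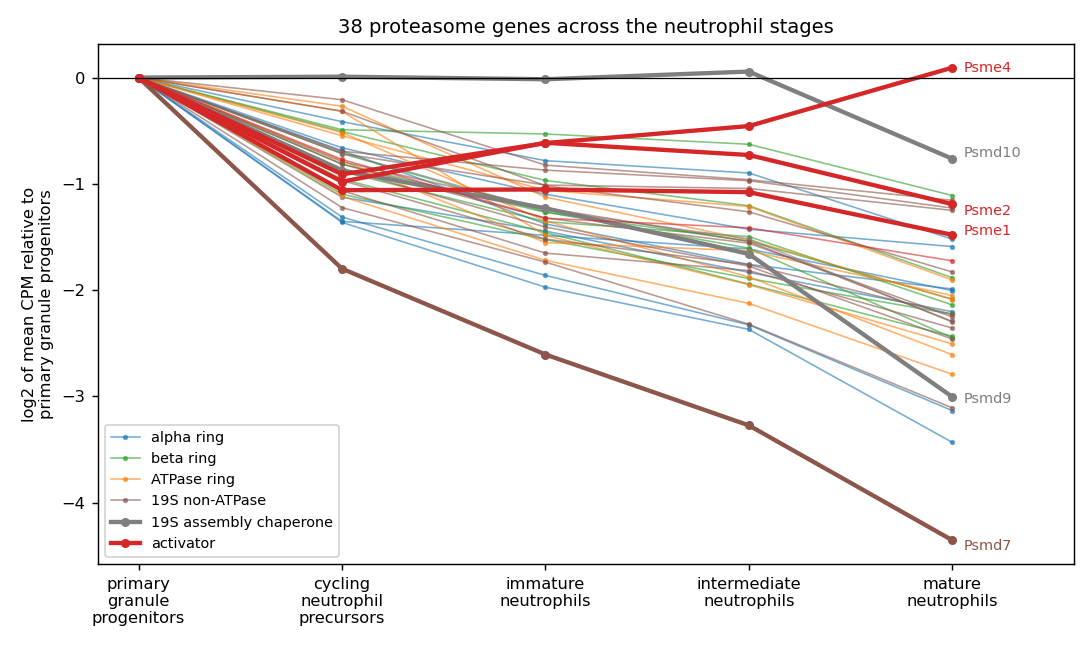
The log2 of each gene's mean CPM over the 4 libraries relative to primary granule progenitors (y axis) in the 5 neutrophil stages (x axis), coloured by part of the complex, for 38 genes without Psma8 and Psmb11. Psme4 ends above its start in mature neutrophils, and Psmd7 ends lowest of the lines drawn.

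From cycling precursors to immature neutrophils 28 of 38 members fell and 6 rose, against 35.3% and 32.2% of the 12071 genes tested. The median member changed by -0.28 and the median gene by -0.04. All 6 ATPase genes fell. Psmc3 went from 100, 102, 111 and 105 CPM to 47.6, 42.5, 46.7 and 49.4 CPM, with no overlap and a change of -0.93 ± 0.05 (adjusted p = 3.2e-10). Psmc2 changed by -0.62 ± 0.05 (adjusted p = 3.8e-08) and Psmc4 by -0.60 ± 0.06 (adjusted p = 2.6e-07). Psmb6, Psmb7 and Psmb5 changed by -0.31 ± 0.04, -0.23 ± 0.05 and -0.19 ± 0.04, and each passed the test. Psmd14 changed by -0.47 ± 0.04 and Psmd5 by -0.30 ± 0.07, and both passed. Psme3 also fell (-0.30 ± 0.07, adjusted p = 0.0019). Psmd4 (-0.07 ± 0.05) and Psmd9 (-0.13 ± 0.08) did not pass.

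The rising members of that step were led by activators. Psme2 was at 66.9, 57.7, 61.5 and 68.5 CPM in cycling precursors and 83.5, 74.1, 84.2 and 86.3 CPM in immature neutrophils of Control, Butyrate, B12 and B12+Butyrate. The 2 sets did not overlap, and the change was 0.60 ± 0.04 (adjusted p = 6.9e-09). Psme1 changed by 0.25 ± 0.04 (adjusted p = 7.8e-05), but its CPM overlapped, at 88.7 to 103 and 91 to 101. With library totals in place of TMM factors Psme1 changed by 0.01, the chaperone Psmd10 by -0.027 where it had risen by 0.21 ± 0.06, and the split was 2 higher and 33 lower.

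From primary granule progenitors to cycling precursors the result depended on the scaling. TMM scaling gave 23 of 39 members lower and 8 higher, against 39.8% and 39% of the 13103 genes tested. The median member was at -0.18 and the median gene at -0.01. The 39 include Psma8, which passed the low-count filter only through its counts in progenitors. Library totals gave 38 lower and 0 higher, with the median gene at -0.65. Psmd7 fell in both: it was at 151, 148, 155 and 155 CPM in progenitors and 43.9, 42.8, 45.3 and 42.9 CPM in cycling precursors, a fitted change of -1.16 ± 0.05 (adjusted p = 3.0e-12). Psma5 changed by -0.73 ± 0.05 (adjusted p = 1.1e-09), Psmb5 by -0.46 ± 0.04 (adjusted p = 9.9e-08), Psme1 by -0.42 ± 0.05, Psme2 by -0.34 ± 0.05, Psme4 by -0.27 ± 0.06 and Psmd9 by -0.25 ± 0.06, all past the test. Psme3 changed by -0.14 ± 0.06 (adjusted p = 0.031), and this call was lost with DESeq2 (adjusted p = 0.19) and without the Control, B12 or B12+Butyrate library (adjusted p = 0.10, 0.12 and 0.097). Psmd5, Psmd4 and Psmb6 did not pass, with -0.08 each.

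Of the 8 members higher under TMM, 7 (Psma2, Psmb3, Psmb7, Psmc2, Psmc3, Psmd13 and Psmd14) were lower in CPM in all 4 libraries. Psmd13, a lid subunit, was fitted at 0.42 ± 0.05 but was at 97.1 to 111 CPM in progenitors and 88.9 to 92.3 CPM in cycling precursors, lower in all 4 libraries, and library totals gave -0.21. Psmc2 (0.36 ± 0.05), Psmd14 (0.32 ± 0.05) and Psmb7 (0.13 ± 0.05) likewise became -0.27, -0.32 and -0.51. Psmd10, with the highest fitted change (0.64 ± 0.07), was at 27.3 to 33.6 and 29.5 to 32.2 CPM, higher in 2 of 4 libraries, and library totals gave 0.01 (adjusted p = 0.93).

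Monocytes held more proteasome transcripts than mature neutrophils in nearly all parts of the complex. In non-cycling monocytes 33 of 38 members were higher and 2 lower than in mature neutrophils, against 48.7% and 36.1% of the 11476 genes tested. The median member differed by 0.82 and the median gene by 0.34. Library totals moved the median gene to 1.30 and gave 38 members higher and 0 lower. The inner ring had the highest median of the parts (1.21, 7 of 7 tested genes higher), above the outer ring (0.98), the non-ATPase cap (0.85) and the ATPase ring (0.83). The 3 single members with the largest differences were a cap and 2 outer ring genes. Psmd7 was at 65.2, 65.8, 73 and 64.2 CPM in monocytes against 5.9 to 9.93 CPM in mature neutrophils (2.28 ± 0.13, adjusted p = 2.6e-10). Psma4 was at 187, 190, 207 and 191 CPM against 21.1 to 25 CPM (2.08 ± 0.08, adjusted p = 1.9e-12), and Psma5 at 146, 132, 151 and 138 CPM against 13.4 to 19.3 CPM (2.07 ± 0.09, adjusted p = 1.2e-11). None of these overlapped. Mitochondrial UMIs were 1.99 to 2.5% in monocytes and 0.275 to 0.421% in mature neutrophils. The median depth by library was 10458 to 11401 and 4700 to 5323 UMIs. Granule, maturation, S100a8 and S100a9 genes took 0.379 and 30.3% of UMIs on average. Secondary granule markers summed to 1120 to 1807 CPM in monocytes. The part of these in the differences was not tested.

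The other members named by role followed. Psmd9 differed by 1.38 ± 0.16, Psmb6 by 1.31 ± 0.08, Psmb5 by 0.83 ± 0.08, Psmb7 by 0.81 ± 0.08, Psme1 by 0.71 ± 0.07 and Psme2 by 0.64 ± 0.08, and each passed the test. Psmd5 (0.35 ± 0.14), Psmd14 (0.32 ± 0.08) and Psmd4 (0.24 ± 0.07) passed with smaller differences. Psme4 was lower under TMM scaling (-0.35 ± 0.06, adjusted p = 8.2e-05), yet its CPM was higher in all 4 monocyte libraries (151 to 170 against 94.7 to 114), and library totals gave 0.61. Psmd10 (-0.40 ± 0.14, adjusted p = 0.014) became 0.55 with library totals and lost its call without the Control or the B12 library, which left 1 member lower, and Psme3, which did not pass (-0.09 ± 0.13), became 0.87.

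**Figure D3:**
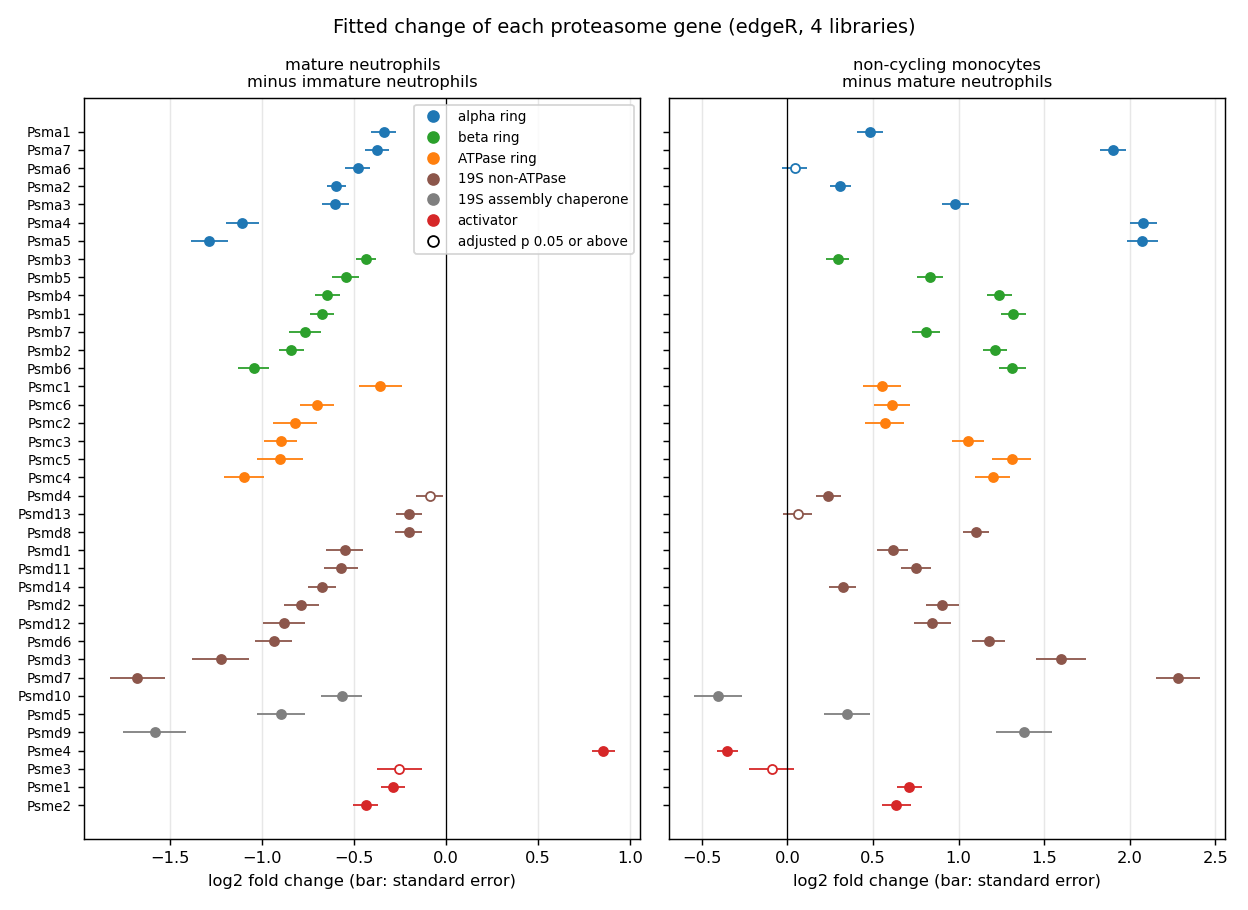
Fitted log2 fold change of each member (x axis) with its standard error for mature against immature neutrophils (left) and non-cycling monocytes against mature neutrophils (right), under TMM scaling; open points did not pass an adjusted p of 0.05. Psme4 stands at 0.86 on the left, where Psmd7 stands at -1.68.

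A pair of members stood out for their monocyte levels and are given after their values were seen. Psma7, an outer ring subunit, was at 673, 698, 733 and 715 CPM in non-cycling monocytes and 752, 721, 793 and 749 CPM in cycling monocytes of Control, Butyrate, B12 and B12+Butyrate. In primary granule progenitors it was at 364 to 404 CPM, in T and NK cells at 176 to 191 CPM, in non-cycling B-lineage cells at 137 to 169 CPM and in mature neutrophils at 87.9 to 112 CPM. Psmd8, a lid subunit, was at 216, 209, 223 and 195 CPM in non-cycling monocytes, 114 to 126 CPM in primary granule progenitors and 44 to 55.6 CPM in mature neutrophils. Across 55 class sums that hold the 4 libraries, the log2 levels of Psma7 and Psmd8 had a Pearson r of 0.958, while Psma7 and Psma6, another outer ring subunit, had 0.641. These are descriptions over sums that share libraries and depth.

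**Figure D4:**
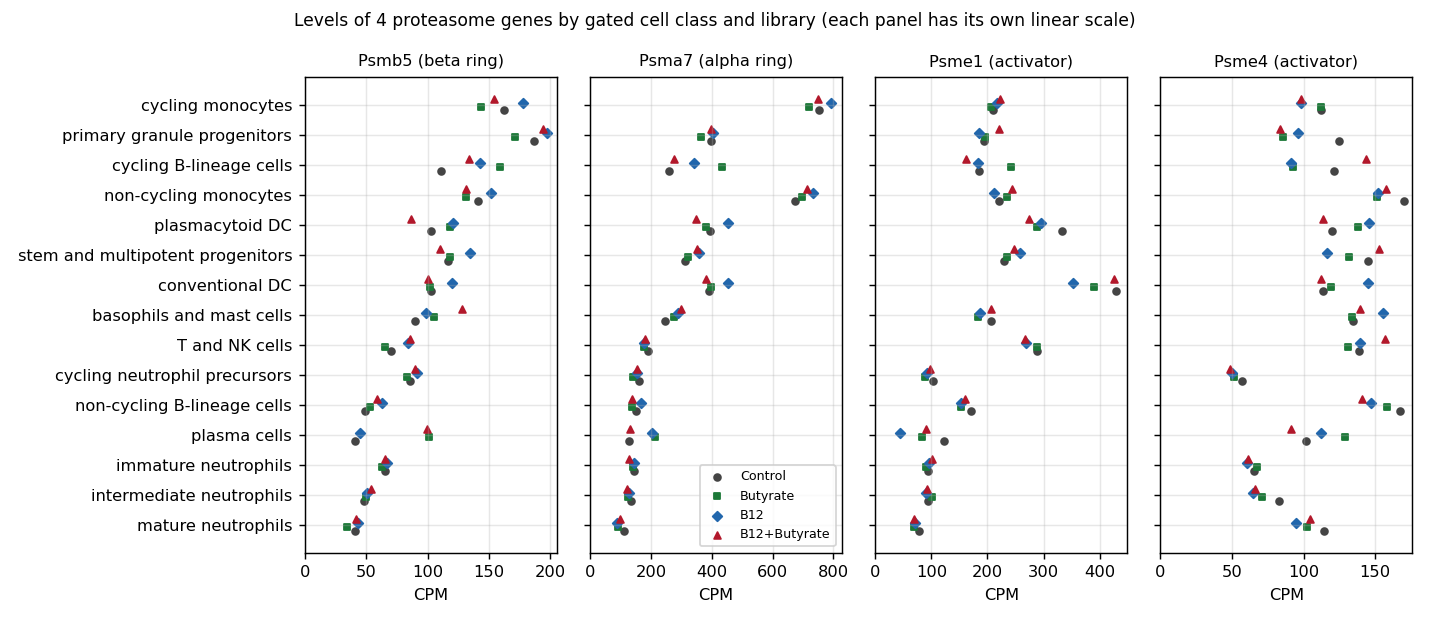
CPM (x axes, linear, 1 scale per panel) of Psmb5, Psma7, Psme1 and Psme4 in each gated class (y axis), with 1 point per library. Psma7 lies between 673 and 793 CPM in the monocyte classes, and Psme4 lies at or below 67.7 CPM in cycling precursors and immature neutrophils.

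Among lymphoid cells (T and NK cells against non-cycling B-lineage cells), 11 of 38 members were higher and 0 lower, against 23.7% and 22.7% of the 9954 genes tested. The count higher is near its background, while the count lower is below its own. The median member differed by 0.16 and the median gene by 0.01. At an unadjusted p under 0.05, 12 were higher and 1 lower, while DESeq2 gave 4 higher and 0 lower. The members with the largest differences were the PA28 genes and Psmb3. Psme2 was at 91.7, 83, 114 and 94.1 CPM in B-lineage cells and 197, 188, 197 and 181 CPM in T and NK cells of Control, Butyrate, B12 and B12+Butyrate. Every T and NK library was above every B-lineage one, with a difference of 0.92 ± 0.08 (adjusted p = 2.4e-07). Psme1 was at 170, 152, 153 and 161 CPM and at 288, 289, 268 and 267 CPM (0.71 ± 0.07, adjusted p = 8.3e-07). Psmb3, an inner ring subunit with no catalytic site, was at 118 to 136 and 182 to 221 CPM (0.55 ± 0.07, adjusted p = 1.6e-05).

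Psmb5 differed by 0.35 ± 0.10 (adjusted p = 0.012) and Psmd4 by 0.27 ± 0.10 (adjusted p = 0.035), and both lost the call with DESeq2 (adjusted p = 0.10 and 0.21). Psmb6 (0.10 ± 0.10), Psmb7 (0.01 ± 0.12), Psmd14 (-0.06 ± 0.08), Psmd5 (0.12 ± 0.16), Psmd9 (-0.04 ± 0.16), Psmd10 (0.28 ± 0.17), Psme3 (0.34 ± 0.24) and Psme4 (-0.22 ± 0.09, adjusted p = 0.058) did not pass. The count higher went to 7 without the Butyrate library and to 5 without the B12+Butyrate library. Without the Butyrate library Psme3 passed (0.74, adjusted p = 0.0059). Monocyte markers summed to 309 to 364 CPM in T and NK cells and 927 to 975 CPM in B-lineage cells, with 9 of 9 detected in both. Conventional DC markers, which include the class II genes Cd74, H2-Aa and H2-Ab1 that B cells also express, summed to 96.2 to 214 and 10328 to 11437 CPM (8 of 8 in both). Plasmacytoid DC markers lay at 87.2 to 209 and 537 to 635 CPM (6 of 6), and plasma cell markers at 50.3 to 84.5 and 396 to 452 CPM (7 of 7). Their part in these differences was not tested.

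A pair of members is restricted elsewhere in the body. Psma8 encodes the alpha subunit of testis. It had a UMI in 128 of 880 primary granule progenitors (14.5%, 95% exact binomial interval 12.3 to 17.1%, median 28507 UMIs per cell) and in 37 of 273 stem and multipotent progenitors (13.6%, 9.73 to 18.2%, median 17668 UMIs). The share was 7.92% in cycling monocytes (median 20193.5 UMIs), 0.458% in cycling neutrophil precursors (median 19964 UMIs) and 1 of 2322 cells in immature neutrophils (median 12647 UMIs). Its level was 11.8 CPM in stem and multipotent progenitors, 7.69 in primary granule progenitors and 0.308 in cycling precursors. The exact Poisson intervals were 9.08 to 15.2, 6.65 to 8.84 and 0.217 to 0.424 CPM. The fitted change between the latter 2 classes was -3.93 ± 0.32. Psma8 passed the low-count filter of that fit only through primary granule progenitors, so the fit's p-value is not given as support. The libraries were uneven: in primary granule progenitors Psma8 was at 14.9 CPM in Control, 3.47 in Butyrate, 6.98 in B12 and 3.55 in B12+Butyrate, and Control held 504 of its 932 UMIs. In cycling precursors it was at 0.649, 0, 0.339 and 0.187 CPM, below progenitors in all 4 libraries. Psmb11, the catalytic subunit of thymic epithelium, had 20 UMIs in 16 of 31209 cells. No class had more than 6 of those UMIs, and in the 3103 mature neutrophils 0 cells had one, which allows a share of up to 0.0967% (3 counts) of cells with a UMI and sets no limit on cells that express the gene at this depth (median 5067 UMIs). Intervals and limits cover counting error only.

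Over the 55 class sums, the 3 genes outside the list whose log2 level was most like that of the summed members were Atp5a1 (Pearson r = 0.977), Atp5d (0.976) and Ndufb5 (0.976) of 8732 genes compared, which encode parts of the mitochondrial respiratory chain or ATP synthase. They ranked 4, 6 and 7 with the members counted. Psma4 (0.981), Psmb2 (0.978) and Psma5 (0.978) took the 3 highest ranks, as parts of the sum. Psme1 followed the immunoproteasome gene Psmb8 (0.954) and Psme2 (0.910), and its r with Psmb5 was 0.625. Psme3 and Psme4 had 0.247. Class sums of 1 library are not independent.

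Genes around the proteasome did not move as 1 block between immature and mature neutrophils, a step at which 40.4% of all genes fell and 37.3% rose. Of 11 other assembly factors and regulators 8 fell and 2 rose, with Psmg1, a chaperone of the outer ring, at -2.32 ± 0.24 and Pomp, which matures the core, at -0.46 ± 0.06. Of the immunoproteasome genes, Psmb10 fell (-0.91 ± 0.17), Psmb9 rose (0.44 ± 0.06) and Psmb8 did not pass (0.14 ± 0.08). The Nfe2l1 axis, with the factor, its protease Ddi2 and related regulators, had 7 of 7 tested genes higher, including Nfe2l1 (0.26 ± 0.11), Ddi2 (0.27 ± 0.11) and Nfe2l2 (0.25 ± 0.05). The interferon response list had 11 of 11 higher. Ubiquitin genes, activating enzymes and shuttles had 5 of 11 higher, near that background, and 3 lower, and the segregase Vcp with its cofactors 1 higher and 3 lower of 5. The medians were -0.54, 0.14, 0.47, 2.82, 0.14 and -0.32 in that order of lists, against -0.07 for all genes. All these values are under TMM scaling. Library totals put the median gene of this step at -0.21, and whether the small rises, such as that of Nfe2l1, hold there was not tested.

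The same lists differed in their own ways in the other comparisons. From cycling precursors to immature neutrophils (32.2% of all genes rose, 35.3% fell), 8 of 10 interferon genes and 6 of 8 Nfe2l1 axis genes rose and 0 of either fell, while 6 of 11 assembly genes fell and 2 rose. In non-cycling monocytes against mature neutrophils (48.7% higher, 36.1% lower), 8 of 11 assembly genes were higher, among them Pomp (1.56 ± 0.07), and Psmb10 differed by 3.35 ± 0.13 and Psmb8 by 1.29 ± 0.07. Nfe2l1 axis genes were split there (3 higher, 5 lower of 8), with Nfe2l1 at -0.71 ± 0.11 and Ddi2 at 1.72 ± 0.09. In T and NK cells against B-lineage cells (23.7% higher, 22.7% lower), 8 of 8 interferon genes tested and 2 of 3 immunoproteasome genes were higher, beside Psme1 and Psme2. From primary granule progenitors to cycling precursors (39.8% fell, 39% rose), 9 of 11 assembly genes fell and 1 rose.

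Treatment differences each rest on 1 library per treatment, so there is no test, and log2 ratios are of CPM + 10 over the 38 members that reached 10 CPM in at least 1 of the libraries compared. B12 minus Control and Butyrate minus Control share the Control library, both comparisons with B12+Butyrate share that library, and each is also tied to one of the former through the B12 or the Butyrate library, so the values are given side by side. Over the 13 classes with at least 20 cells in every library, the summed level was highest in B12 in 11 classes and lowest in Butyrate in 10. Control was highest in 2 classes, the intermediate and mature neutrophils. The same counts held with granule UMIs left out. These classes share their libraries, so the counts are not independent. The libraries also differed in mitochondrial UMIs, with a median share in kept cells of 1.46% in Control, 1.85% in Butyrate, 1.06% in B12 and 1.21% in B12+Butyrate. Barcodes above the 10% limit made up 8.89, 13.9, 9.43 and 5.34% in the same order. The part of this in the order of the libraries was not tested.

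With B12 against Control, members were higher in 24 of 38 in immature neutrophils (43% of all genes measured were higher), 32 of 38 in non-cycling monocytes (48.7%) and 24 of 38 in non-cycling B-lineage cells (53.4%). The medians were 0.01, 0.05 and 0.08. The later neutrophil stages went the other way. In intermediate neutrophils 15 of 38 members were higher (49.6% of genes, median -0.05). In mature neutrophils 10 of the 35 that reached 10 CPM were higher (46.9%, median -0.10). In immature neutrophils the named ratios ran from Psma1 (-0.14), Psmd13 (-0.13) and Psmc6 (-0.11) to Psmc2 (0.10), Psmd7 (0.14) and Psmd11 (0.18). In monocytes they ran from Psme4 (-0.15), Psmc1 (-0.07) and Psme1 (-0.06) to Psma4, Psmb3 and Psmd7 (0.14 each). In B-lineage cells Psme4 (-0.18), Psme1 (-0.15) and Psma4 (-0.14) were lowest and Psmb6 (0.40), Psmc1 (0.49) and Psmc2 (0.63) highest. Psmc2 was at 28.4 CPM in Control, 49.5 in B12, 33.1 in Butyrate and 30.6 in B12+Butyrate, so B12 alone stood apart.

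With B12+Butyrate against Butyrate, the other B12 comparison, members were higher in 21 of 38 in immature neutrophils (41.9%), 21 of 38 in monocytes (47.7%) and 22 of 38 in B-lineage cells (55.7%), with medians of 0.02, 0.00 and 0.04. Here the later neutrophil stages had 20 of 38 higher (intermediate, 46.0%, median 0.02) and 27 of 34 higher (mature, 42.9%, median 0.08). Psmc1 (-0.19), Psme4 (-0.13) and Psma7 (-0.13) were lowest and Psmc3 (0.18), Psma6 (0.18) and Psme2 (0.20) highest in immature neutrophils. In monocytes the ends were Psmc2 (-0.15), Psme3 (-0.15) and Psmd13 (-0.13), and Psmd5 (0.11), Psmd9 (0.13) and Psma2 (0.19). In B-lineage cells they were Psme3 (-0.58), Psmd3 (-0.20) and Psme4 (-0.15), and Psmd7 (0.23), Psmd2 (0.23) and Psmd4 (0.29). The high B12 ratios of Psmc2 and Psmc1 in B-lineage cells were not among the highest here.

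With Butyrate against Control, members were higher in 16 of 38 in immature neutrophils (54.8%), 17 of 38 in monocytes (51.1%) and 16 of 38 in B-lineage cells (46.4%), and the medians were -0.02, -0.01 and -0.02. Psmb3 (-0.23), Psma2 (-0.16) and Psma6 (-0.16) were lowest and Psmd1 (0.16), Psma4 (0.19) and Psmb7 (0.20) highest in immature neutrophils. In monocytes they were Psme4 (-0.16), Psma2 (-0.15) and Psma5 (-0.14), and Psmd10 (0.13), Psme3 (0.14) and Psme2 (0.15). In B-lineage cells they were Psmd14 (-0.24), Psmd6 (-0.23) and Psma1 (-0.18), and Psmb7 (0.22), Psmd5 (0.24) and Psme3 (0.30).

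With B12+Butyrate against B12, members were higher in 21 of 38 in immature neutrophils (54.2%), 11 of 38 in monocytes (49.3%) and 14 of 38 in B-lineage cells (47.4%), with medians of 0.01, -0.09 and -0.07. The ends were Psmd12 (-0.19), Psma7 (-0.17) and Psmb2 (-0.11), and Psmd13 (0.17), Psma1 (0.18) and Psmd1 (0.19) in immature neutrophils. In monocytes they were Psmd14 (-0.22), Psmb3 (-0.21) and Psmb5 (-0.19), and Psmb7 (0.07), Psmd9 (0.14) and Psme1 (0.19). In B-lineage cells Psmc2 (-0.55), Psmc1 (-0.32) and Psmc6 (-0.30) were lowest and Psma6 (0.15), Psmd5 (0.22) and Psmd1 (0.22) highest.

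Cycling monocytes, given after their values were seen, showed the most one-sided treatment counts of the 4 classes described. Their summed level was 6134 CPM in Control (95% Poisson interval 6091 to 6178), 5635 in Butyrate (5580 to 5691), 6497 in B12 (6447 to 6547) and 5934 in B12+Butyrate (5874 to 5995). Both butyrate libraries were below their partner without butyrate, and both B12 libraries above their partner without B12. With Butyrate against Control 1 of 38 members was higher (52% of genes), and with B12+Butyrate against B12, a comparison of a separate pair of libraries, 2 of 38 were higher (45.8%). The medians were -0.09 and -0.12 against 0.01 and -0.01 for all genes. B12 gave 34 of 38 higher than Control (51.8%) and 25 of 38 higher with Butyrate on both sides (45.5%), with medians of 0.06 each.

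Single members in cycling monocytes had ratios from -0.30 to 0.03 for Butyrate against Control and from -0.38 to 0.03 for B12+Butyrate against B12. Psma2 was at 297 CPM in Control, 251 in Butyrate, 348 in B12 and 266 in B12+Butyrate, with ratios of -0.23 and -0.38 for butyrate. Psmb2 (-0.30) and Psma5 (-0.25) were also among the lowest for Butyrate against Control, and Psmd12 (-0.29) and Psmd11 (-0.23) for B12+Butyrate against B12. Psmd4 (0.03) was higher in the former, and Psme1 (0.02) and Psmd3 (0.03) in the latter. The primary granule markers, of which 5 of 5 were detected, summed to 3168, 2338, 3499 and 3971 CPM in Control, Butyrate, B12 and B12+Butyrate. In the same order the 12 cycling markers summed to 3484, 3671, 3340.4 and 3243 CPM, and the median depth was 19373, 18334, 20768 and 22180 UMIs. Mitochondrial UMIs made up 2.55, 3.20, 2.35 and 2.75%. They were highest in Butyrate, where the summed level was lowest, and lowest in B12, where it was highest. The part of the markers, depth and mitochondrial UMIs in these differences was not tested. With gate thresholds raised 2 times, 8 of 38 members were higher with Butyrate against Control and 4 with B12+Butyrate against B12.

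**Figure D5:**
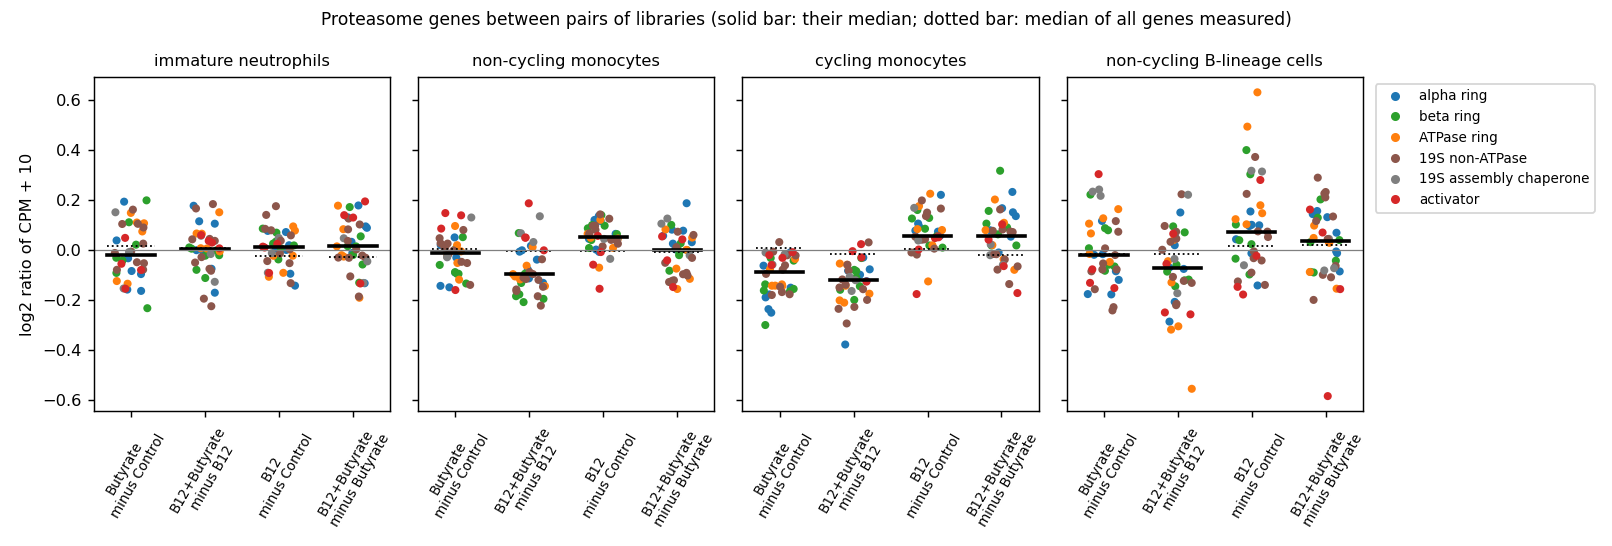
Log2 ratios of CPM + 10 for 38 members (points, coloured by part of the complex) between pairs of libraries (x axis) in 4 gated classes, with a solid bar at the members' median and a dotted bar at the median of all genes measured. In cycling monocytes the solid bars lie at -0.09 and -0.12 for the butyrate pairs and at 0.06 for both B12 pairs.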

How the data were processed

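Bone marrow cells were profiled with 10x 3' single-cell RNA-seq. The authors deposited unnormalized UMI counts for each gene in each barcode. Per the file headers these came from Cell Ranger 7.1.0, and per the submitters' processing notes the build was GRCm39. The labels do not state whether introns were counted. Each of the 4 libraries pools 3 mice (12 in all). With library as a block, p-values between classes rest on how the class difference within a library varied over 4 pools under different treatments. They do not measure the spread between mice.

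Cells with at least 500 genes and 1000 UMIs and at most 10% mitochondrial UMIs were gated on summed marker UMIs per 10000, with thresholds set after marker distributions were seen. Cells passing the gates of more than 1 lineage were left out, and no other doublets were removed (a simulation-based caller marked 5.43 to 7.00% per library, removed in an alternative). UMIs were summed per library and class. Class pairs were compared over libraries with at least 20 cells of each class, while class levels were given for all 4 libraries. The comparisons were made with edgeR 4.0.16 in R 4.3.3 (quasi-likelihood test, TMM, library as block because both classes come from the same pooled mice, Benjamini-Hochberg over all genes tested), checked on simulated counts. Treatments were compared as log2 ratios of CPM + 10 without a test. DESeq2 1.42.0 served as an alternative, with others on scaling, low-count filter, block, granule UMIs, gates, thinning to 2000 UMIs, mitochondrial limit, pseudocount and left-out libraries.

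Named were the catalytic, activator, ubiquitin-handling, chaperone and tissue-restricted members, in class comparisons the 3 that passed with the largest change in each direction, and in treatment comparisons the 3 highest and 3 lowest ratios at 20 CPM or more. The members, lists and tests were chosen with earlier results of these data known.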

Additional observations from a re-analysis of the deposited data

How the results depend on the processing

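Library totals in place of TMM gave 0 members higher and 38 lower from primary granule progenitors to cycling precursors, 2 higher from cycling precursors to immature neutrophils and 0 lower in monocytes against mature neutrophils. They turned Psmb7 to -0.51, Psmd14 to -0.32, Psmc2 to -0.27 and Psmd13 to -0.21 at the first step, Psmd10 to -0.027 at the second, and Psme4 to 0.61, Psme3 to 0.87 and Psmd10 to 0.55 in monocytes. In monocytes 1 member was lower with DESeq2, 1 with gates raised 2 times and 1 to 2 with a library left out. In T and NK cells 4 members were higher with DESeq2, 7 without a low-count filter and 5 to 9 with a library left out, and 1 was lower without the filter, 1 with called doublets removed and 0 to 1 with a library left out. From immature to mature neutrophils 33 to 34 members fell and 1 rose with a library left out.

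The replicate block (library) moved no count by over 1.5 times: without it 9 members were higher in T and NK cells, and 35 fell and 1 rose from immature to mature neutrophils.

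Among treatment counts, keeping members at 50 CPM or more gave 14 of 20 higher (B12 against Control) and 6 of 21 (Butyrate against Control) in immature neutrophils, 7 of 24 in B-lineage cells (Butyrate against Control), and, for B12+Butyrate against B12, 11 of 20 in immature neutrophils, 7 of 31 in monocytes and 9 of 26 in B-lineage cells, with fewer members measured by construction. Gates on thinned cells gave 6 of 38 for the same pair in monocytes. In cycling monocytes Butyrate against Control gave 8 with gates raised 2 times, 2 on thinned cells, 5 at 5% mitochondrial UMIs and 2 with doublets removed, and B12+Butyrate against B12 gave 4 with raised gates and 1 on thinned cells. The cause was not tested. Plasma cells against B-lineage cells could not be fitted, since 1 library held 20 plasma cells.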
